A study of Mus musculus with 12 samples.

Results

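Axon guidance ligands and receptors were followed in the hippocampus of wild-type and Chd8 mutant mice. Symbols were those of semaphorins of classes 3 to 7, plexins, neuropilins, ephrins, Eph receptors, slits, robos, netrins, netrin-Gs, Unc5 receptors and Dcc. The set held every protein-coding gene in the table with such a symbol and a mean of at least 10 normalized counts over 12 libraries. It came to 70 genes, 36 ligands and 34 receptors, of 46078 gene IDs in the table and 17496 that reached that mean. All 70 protein-coding matches in the table reached it, so no matching gene was lost to the filter. Within these families the symbol and that mean alone chose the genes. The families themselves were chosen with earlier results of these data known.

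Each of the 12 libraries was a hippocampal total RNA sample of a C57BL/6 mouse at postnatal day 25. The 4 groups were wild-type males, mutant males, wild-type females and mutant females, with 3 libraries each. The mutants were heterozygous for CHD8 Asn2373LysfsX2, a frameshift allele of the chromatin remodeller gene Chd8, so every mutant still carried 1 wild-type allele. The labels name no Cre driver or promoter that would limit the allele to a cell type. They also leave unsaid whether 1 animal or a pool stands behind a library, and whether the 3 libraries of a group are from different mice. The p-values below rest on the variation among these libraries alone, part of which may be technical.

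Libraries held 26912998 to 33327314 reads on genes in the wild types and 23721482 to 24654408 in the mutants, so sequencing depth and genotype cannot be told apart beyond what the normalization removes. Chd8 itself had 2751 to 2994 normalized counts in the wild types and 2383 to 2513 in the mutants, a log2 difference of -0.22 with an adjusted p of 0.0289 by limma over all genes. It was the 1 gene of 17496 past an adjusted p of 0.05 when the genotypes were compared over both sexes. Markers of choroid plexus epithelium, the secretory tissue of the brain ventricles, set 3 libraries apart. Ttr counted 167 to 274 in wild-type female 1, mutant male 2 and mutant male 3 and 43047 to 156059 in the other 9. Counts over all members above 0 are given with and without these 3 libraries, whose removal leaves 1 mutant male. So are some of the differences that move with those libraries.

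Axons find their targets by reading attractive and repulsive proteins along the way. Secreted class 3 semaphorins act through neuropilins paired with A-type plexins, and membrane-bound semaphorins bind plexins directly. Ephrins are held on the cell surface and signal in both directions when they meet Eph receptors on a neighbouring cell. Slits repel axons through robos, and netrins attract them through Dcc and repel them through Unc5 receptors. In the hippocampus these systems guide mossy fibres and entorhinal axons before birth and in the first postnatal weeks, and many members go on to shape dendritic spines, vessels and myelin.

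Every family and class in the set was present in juvenile hippocampus, at levels that spread over a wide range. Levels were set per kilobase of all annotated exons of a gene, which need not be the exons in use. On that scale the highest member was Efnb3, the ligand that stops corticospinal axons at the midline, at 1550 normalized counts. It was followed by Epha4, its receptor in that role, at 1394, Slit1 at 1351, Sema7a, a lipid-anchored semaphorin, at 1045 and Unc5a at 950. The lowest were Sema3a at 7.94, Epha1 at 8.11, Epha2 at 8.74 and Efna4 at 12.6. Unc5a shares part of its span with Hk3 on the other strand, Epha1 with Zyx and Efna4 with 4731419I09Rik. The library kit does not mark strand, so reads in those stretches cannot be assigned.

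In normalized counts, the scale of all values by library below, Epha4 had 10905, 10946 and 11659 in the wild-type males, 11172, 12466 and 11197 in the mutant males, 9692, 12295 and 10803 in the wild-type females and 10921, 11485 and 11141 in the mutant females. The 4 groups overlapped, and the genotypes differed by 0.047 ± 0.051 (log2, SE, adjusted p = 0.829 by limma). Slit1, a repellent of forebrain axons, counted 7689, 7953 and 7731 in the wild-type males, 7585, 8907 and 7387 in the mutant males, 7828, 7888 and 8471 in the wild-type females and 7909, 8554 and 8071 in the mutant females. Its genotype difference was 0.023 ± 0.044 (adjusted p = 0.907, limma). Sema7a ranged from 3149 to 3955 in the wild types and from 3242 to 3901 in the mutants, and Unc5a from 3625 to 4255 and from 3860 to 4205. For both, the mutant range lay inside the wild-type one.

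**Figure D1:**
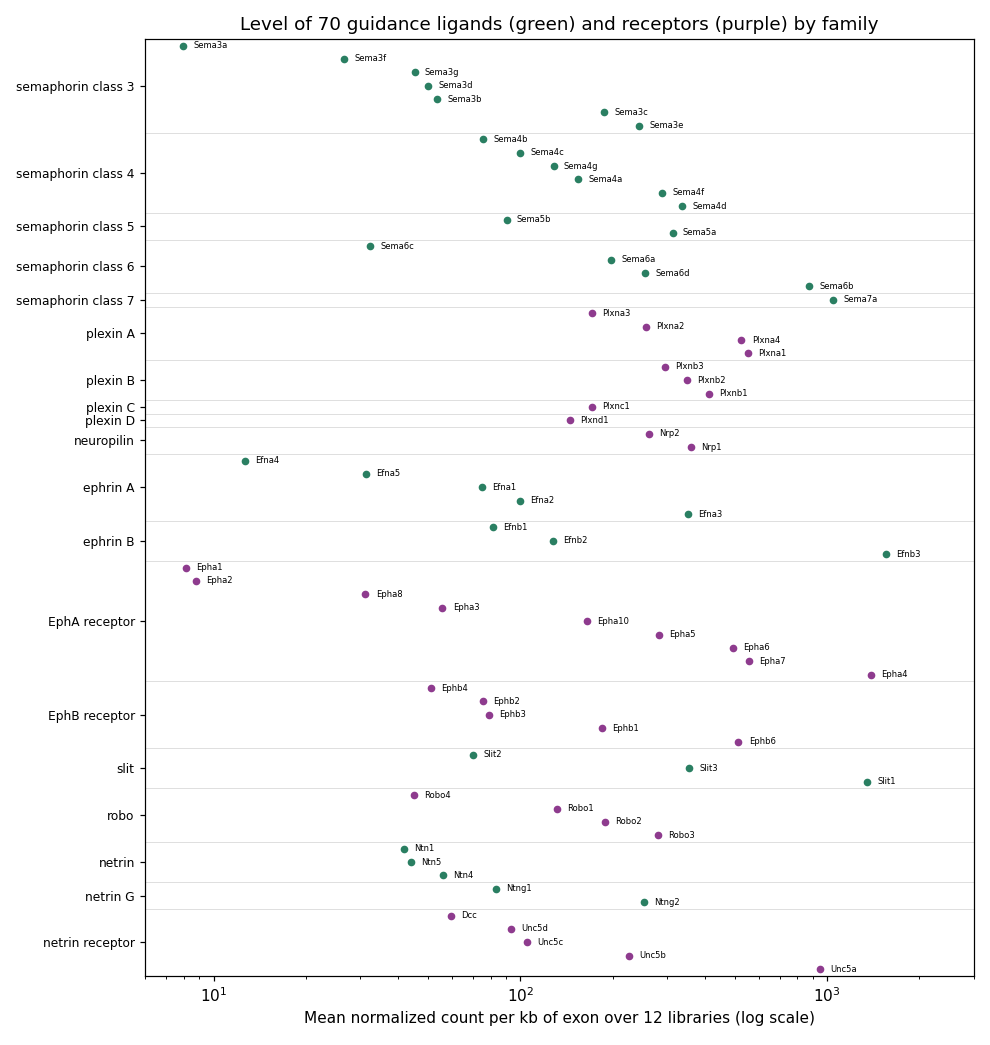
Level of the 70 members as normalized counts per kilobase of exon on a log axis, 1 point per member as the mean over the 12 libraries, ligands in green and receptors in purple, ordered within families. Efnb3 at 1550, Epha4 at 1394 and Slit1 at 1351 lie highest, and Sema3a, Epha1 and Epha2, all under 10, lowest.

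No member passed an adjusted p of 0.05 between genotypes over both sexes with limma, the main test, against 0.00572% of all 17496 genes. With edgeR and with limma-voom the count was 0 as well (0.00572% of genes with each), and with DESeq2 it was 1, Plxnb3, against 0.429% of genes. At an unadjusted p under 0.05, 15 of the 70 stood out against 8.87% of all genes. Of these, 9 were higher in mutants (Dcc, Efna2, Ephb4, Ephb6, Robo1, Robo2, Sema3e, Sema4f and Sema6b, against 4.4% of genes) and 6 were lower (Efnb3, Ephb1, Plxnb3, Sema4d, Sema6a and Unc5b, against 4.47%). The difference was above 0 for 44 of 70 members and for 49.9% of all genes, with medians of 0.037 and -0.0001 on the log2 scale. The member furthest above 0, Sema3a, a class 3 semaphorin named here after its values were seen, ranged from 62.2 to 115 in the wild types and from 76.9 to 163 in the mutants (0.37 ± 0.20, adjusted p = 0.628, limma), and the genotypes overlapped. Receptors had 22 of 34 above 0 with a median of 0.054, and ligands 22 of 36 with a median of 0.023.

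**Figure D2:**
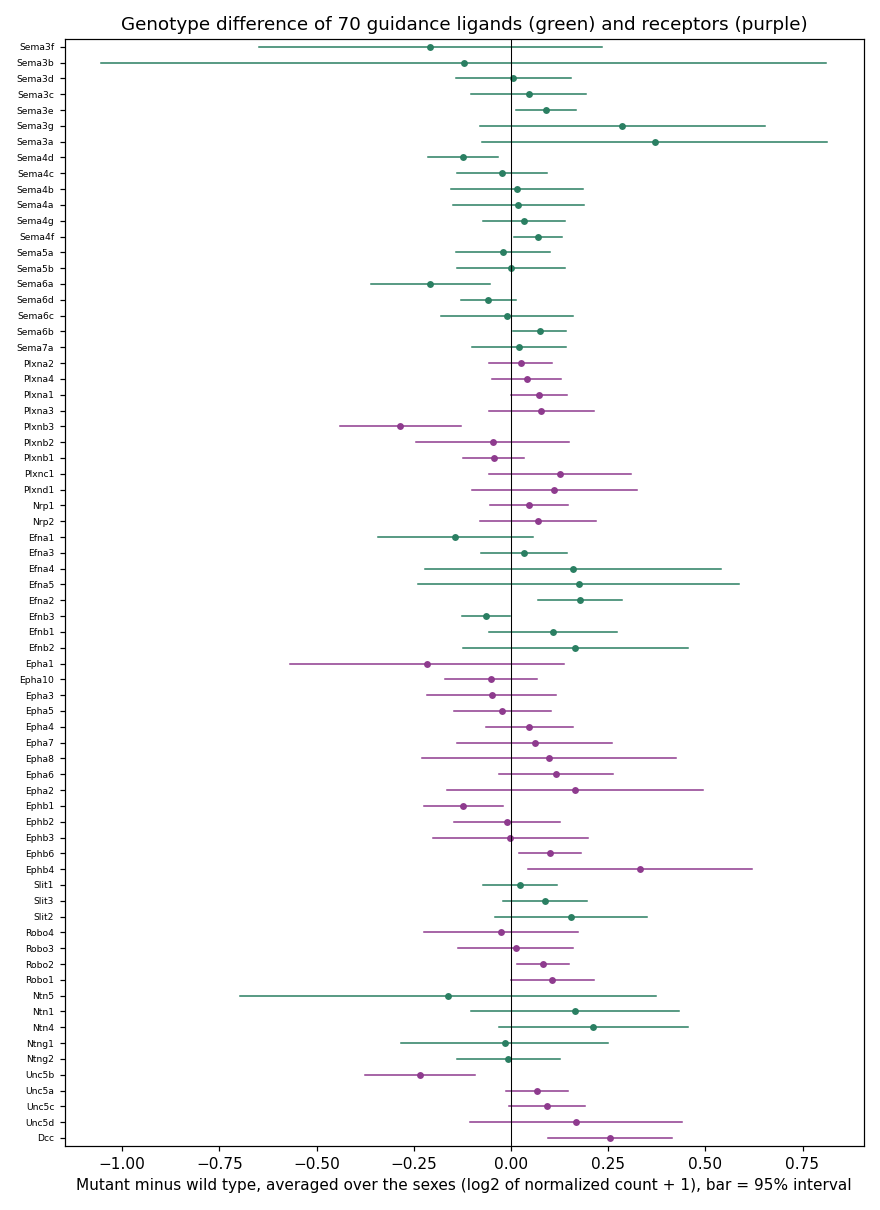
Log2 difference between mutant and wild type averaged over the sexes for each member (point) with its unadjusted 95% confidence interval from limma (bar), ligands in green and receptors in purple, by family. Plxnb3 lies lowest at -0.28, and the interval lies off 0 for 15 of the 70.

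The member furthest below its wild-type level was Plxnb3, a plexin of oligodendrocytes that binds Sema5a. It counted 1967, 2034 and 2111 in the wild-type males and 1390, 1646 and 1978 in the mutant males. In females it counted 2132, 2190 and 2173 in the wild types and 1614, 1921 and 1868 in the mutants. The mutant females all lay below the wild-type females, and among males mutant male 3 reached into the wild-type range. The averaged difference was -0.28 ± 0.072 (log2, SE, 95% interval -0.44 to -0.13), or 17.9% lower, with an adjusted p of 0.316 by limma and 0.0318 by DESeq2. Males gave -0.30 ± 0.10 (adjusted p = 0.423, limma) and -0.17 without mutant male 1 (adjusted p = 0.422), and females -0.27 ± 0.10 (adjusted p = 0.625). Without the 3 libraries low in choroid plexus markers males gave -0.55, with mutant male 1 as the only mutant male left.

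Unc5b, a netrin receptor with a repulsive role that also acts in vessel branching, followed. Its counts were 1419, 1396 and 1552 in the wild-type males, 1093, 1123 and 1459 in the mutant males, 1538, 1629 and 1637 in the wild-type females and 1323, 1368 and 1470 in the mutant females. Again the female groups did not overlap and mutant male 3 lay among the wild-type males. The difference was -0.23 ± 0.065 (95% interval -0.38 to -0.093, adjusted p = 0.359, limma). Unc5b was also lower in males than in females (log2 difference -0.16 ± 0.065, adjusted p = 0.661), the 1 member with an unadjusted p under 0.05 between the sexes.

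Sema4d, a membrane-bound semaphorin of oligodendrocytes and immune cells that binds Plxnb1, counted 2657, 2599 and 2670 in the wild-type males, 2148, 2384 and 2620 in the mutant males, 2661, 2804 and 2777 in the wild-type females and 2487, 2613 and 2618 in the mutant females. The genotype difference was -0.12 ± 0.041 (adjusted p = 0.412, limma). Sema6a, a ligand of A-type plexins that is also made by oligodendrocytes, had 1945, 1650 and 1759 in the wild-type males and 1396, 1491 and 1856 in the mutant males. In females it had 1851, 1858 and 2081 in the wild types and 1522, 1791 and 1620 in the mutants, a difference over both sexes of -0.21 ± 0.071 (adjusted p = 0.419). For both genes every mutant female lay below every wild-type female. Efnb3, also known as an ephrin of myelin, ranged from 4749 to 5276 in the wild types and from 4521 to 5022 in the mutants (-0.064 ± 0.028, adjusted p = 0.545).

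Markers of mature oligodendrocytes, the myelin-forming cells, were lower in the same comparison. All 12 genes of that list (Mbp and Mog among them) had differences below 0, with a median of -0.23, an unadjusted p under 0.05 for all 12 and none past an adjusted p of 0.05 with limma. Their summed normalized counts were 387680 to 424854 in the wild-type males, 305218 to 396440 in the mutant males, 433071 to 495627 in the wild-type females and 368215 to 422946 in the mutant females, and none was at 0 in any library. The library with the lowest sum, mutant male 1, was also the lowest for Plxnb3, Unc5b, Sema4d, Sema6a, Ephb1 and Efnb3. It was the lowest as well for Ntn1, Ntn5, Ntng2, Plxna2, Plxna4, Plxnb1, Sema3d, Sema4c, Sema5b and Sema6d. None of the latter had an unadjusted p under 0.05 in this comparison (limma), and their differences lay on both sides of 0. What part these markers have in the lower values of the members was not tested, and in bulk tissue fewer cells of a type and less RNA per cell cannot be told apart. Oligodendrocyte precursor markers were below 0 for 6 of 9, with a median of -0.073.

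Leaving out the 3 libraries low in choroid plexus markers, which leaves 1 mutant male that is assumed to vary like the other groups, put 3 members past an adjusted p of 0.05 over both sexes, against 0.469% of genes, with 13 at an unadjusted p under 0.05 (8.56% of genes) and 41 of 70 above 0 (52.2%). They were Plxnb3 at -0.41 (adjusted p = 0.0191), Unc5b at -0.32 (adjusted p = 0.0235) and Sema4d at -0.21 (adjusted p = 0.0235), all by limma. The mutant male that remains is the library with the lowest oligodendrocyte sum. Without mutant male 3 alone, Unc5b passed at -0.30 (adjusted p = 0.0361), the 1 member called against 0.0457% of genes.

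**Figure D3:**
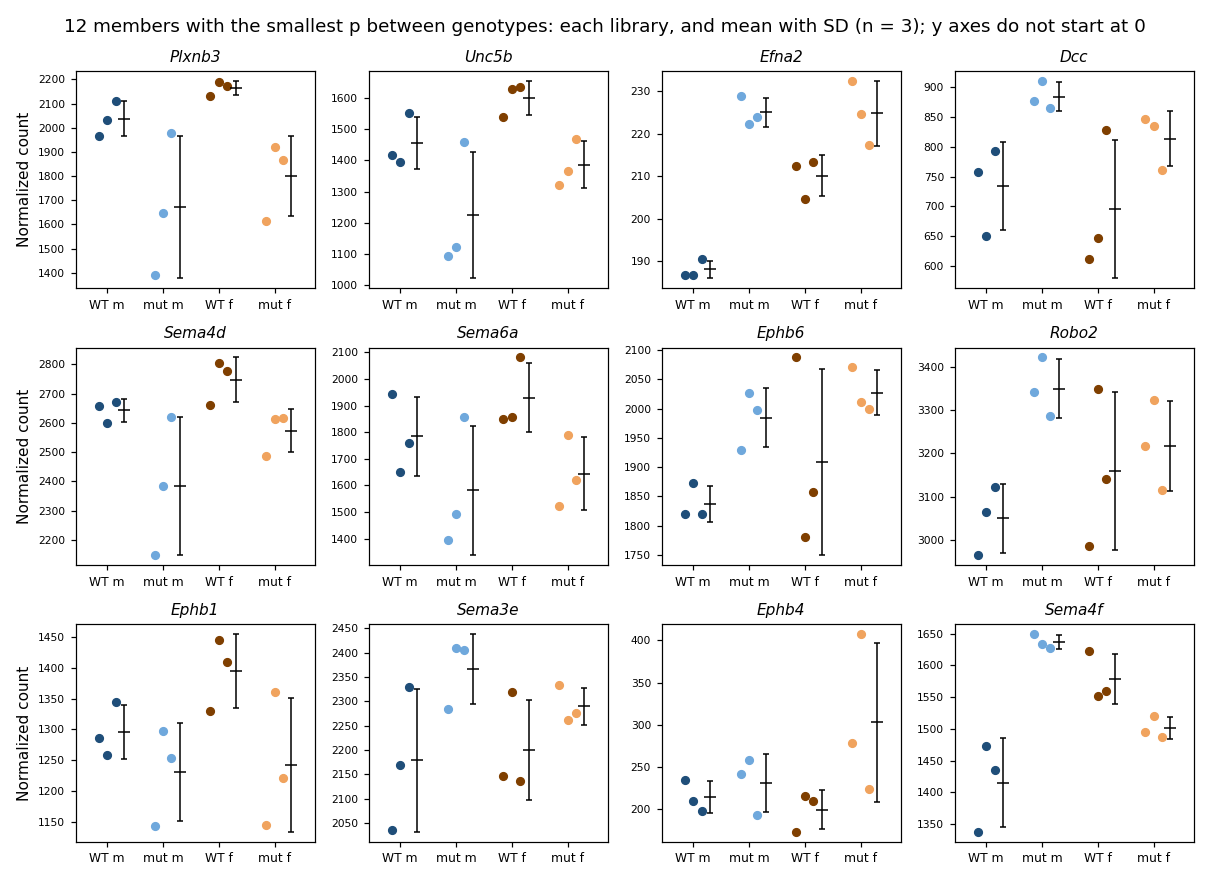
Normalized counts of the 12 members with the smallest p between genotypes, 1 point per library in the groups wild-type males (WT m), mutant males (mut m), wild-type females (WT f) and mutant females (mut f), with the mean and SD (n = 3) beside them. The vertical axes do not start at 0. The mean of Plxnb3, Unc5b, Sema4d and Sema6a is lower in the mutants of each sex and that of Efna2 and Dcc higher, while Sema4f is higher in mutant males and lower in mutant females.

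Efna2, an ephrin that restrains Eph-bearing axons in topographic maps, was the single member whose 6 mutant and 6 wild-type libraries did not overlap with the mutants higher, against 0.303% of all genes. None was separated with the mutants lower, against 0.24%. Efna2 counted 187, 187 and 190 in the wild-type males and 229, 222 and 224 in the mutant males. In females the values were 212, 205 and 213 in the wild types and 232, 225 and 217 in the mutants. The lowest mutant library, at 217, lay just above the highest wild-type library at 213. The averaged difference was 0.18 ± 0.050 (95% interval 0.069 to 0.29, adjusted p = 0.359, limma), and in males it was 0.26 ± 0.070 (adjusted p = 0.407).

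Dcc, the receptor through which netrin-1 attracts axons, counted 758, 651 and 793 in the wild-type males and 877, 911 and 865 in the mutant males. Female values were 612, 646 and 828 in the wild types and 846, 835 and 760 in the mutants. Every mutant male exceeded every wild-type male, while the highest wild-type female lay between the mutant ones. The averaged difference was 0.26 ± 0.073, or 19.4% higher (95% interval 0.096 to 0.41 on the log2 scale, adjusted p = 0.359, limma). The other Unc5 receptors were above 0 as well (Unc5a, Unc5c and Unc5d), so that 4 of 5 netrin receptors were above 0 with a median of 0.093 and Unc5b was the exception.

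The starts of these genes are printed to show the sequence upstream of the members with the smallest p in the averaged comparison for which a RefSeq window was held, and of Sema4f, the member with the smallest p in males. Each window runs from 250 bases before to 50 after the RefSeq start on GRCm38.p6, 5′ to 3′ on the gene's strand, and capitals mark 2 kinds of motif: the SOX core ACAAAG or ACAATG and the E-box CAGCTG, searched on both strands. Plxnb3 (ENSMUSG00000031385, X, 73757090 to 73772514) starts on the plus strand at chrX:73756853-73757152. Unc5b (ENSMUSG00000020099, chromosome 10, 60762593 to 60831581) starts on the minus strand at chr10:60831532-60831831. Efna2 (ENSMUSG00000003070, chromosome 10, 80179482 to 80190010) starts on the plus strand at chr10:80179232-80179531, and Sema4f (ENSMUSG00000000627, chromosome 6, 82911885 to 82939769) on the minus strand at chr6:82939720-82940019.
Plxnb3: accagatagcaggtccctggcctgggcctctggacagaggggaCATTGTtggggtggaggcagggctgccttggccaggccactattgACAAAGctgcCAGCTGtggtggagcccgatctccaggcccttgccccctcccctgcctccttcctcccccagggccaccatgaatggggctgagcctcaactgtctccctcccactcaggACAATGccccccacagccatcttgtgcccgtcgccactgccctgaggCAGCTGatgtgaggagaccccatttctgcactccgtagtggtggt
Unc5b: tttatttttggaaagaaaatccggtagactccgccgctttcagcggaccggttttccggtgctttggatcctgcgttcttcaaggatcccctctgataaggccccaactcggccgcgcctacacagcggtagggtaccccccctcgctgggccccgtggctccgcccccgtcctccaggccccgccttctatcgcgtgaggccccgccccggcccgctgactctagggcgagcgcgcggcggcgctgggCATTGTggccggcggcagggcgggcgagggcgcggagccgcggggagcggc
Efna2: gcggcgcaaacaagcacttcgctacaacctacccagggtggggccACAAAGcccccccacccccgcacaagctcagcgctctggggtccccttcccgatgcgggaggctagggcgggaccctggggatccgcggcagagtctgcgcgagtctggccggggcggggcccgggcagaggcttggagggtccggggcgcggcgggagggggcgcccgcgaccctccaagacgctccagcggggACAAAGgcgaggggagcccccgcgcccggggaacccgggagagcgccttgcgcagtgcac
Sema4f: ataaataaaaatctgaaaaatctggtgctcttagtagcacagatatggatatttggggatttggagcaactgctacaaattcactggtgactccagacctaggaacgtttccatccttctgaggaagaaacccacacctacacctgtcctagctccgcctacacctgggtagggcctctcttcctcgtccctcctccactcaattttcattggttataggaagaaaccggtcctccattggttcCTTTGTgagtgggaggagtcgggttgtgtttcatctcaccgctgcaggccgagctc

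The Plxnb3 window holds 5 of these motifs and 4 CG dinucleotides, which is 0.13 of the number its base composition would give. Unc5b holds 36 CG (0.99 of that number) and 1 motif, Efna2 31 CG (0.74) and 2 motifs, and Sema4f 7 CG (0.4) and 1 motif. Over the 76 windows of the 60 members matched by symbol, 21.1% held a SOX core against 28.6% of all 32851 windows, and 15.8% held CAGCTG against 16.3%. The TATA box TATAAA was in 2.6% of member windows and 13.6% of all windows. The ETS motif CCGGAAG was in 2.6% and 8.9%, and a CG content above 0.6 of expectation in 57.9% and 35.8%. A match describes these letters in these windows and nothing of what binds there.

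Among Eph receptors, Ephb4, the receptor of venous endothelium, had the largest difference over both sexes. It counted 235, 210 and 199 in the wild-type males, 242, 259 and 193 in the mutant males, 173, 216 and 210 in the wild-type females and 279, 407 and 224 in the mutant females. Mutant female 2, at 407, stood far above the rest. The averaged difference was 0.33 ± 0.13 (adjusted p = 0.491, limma) and 0.215 without mutant female 2, and Ephb4 shares part of its span with Zan on the other strand. Ephb6, an Eph receptor without kinase activity, ranged from 1782 to 2087 in the wild types and from 1929 to 2071 in the mutants (0.10 ± 0.036, adjusted p = 0.44). Ephb1, which turns retinal axons away at the chiasm, ranged from 1259 to 1445 and from 1143 to 1360 (-0.12 ± 0.047, adjusted p = 0.469, and -0.19 without those 3 libraries). EphA receptors were split, with 5 of 9 above 0 and a median of 0.047.

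Robo2, a slit receptor, counted 2964, 3064 and 3122 in the wild-type males, 3342, 3423 and 3287 in the mutant males, 2985, 3351 and 3142 in the wild-type females and 3217, 3324 and 3115 in the mutant females. The male groups did not overlap and the female groups did. Its averaged difference was 0.082 ± 0.031 (adjusted p = 0.468, limma). All 3 slits were above 0 (Slit1 0.023, Slit2 0.15 and Slit3 0.088), none past an adjusted p of 0.05, and Slit1 turned below 0 without mutant male 2 or without the 3 libraries low in choroid plexus markers. Sema3e, the class 3 semaphorin that binds Plxnd1 without a neuropilin, ranged from 2037 to 2330 in the wild types and from 2261 to 2410 in the mutants (0.089 ± 0.036, adjusted p = 0.489, and 0.055 without the 3 libraries low in choroid plexus markers). The 4 A-type plexins were all above 0, with a median of 0.056, and the 3 B-type plexins all below, with a median of -0.047. Plxna2 and Plxna4 turned below 0 without the 3 libraries low in choroid plexus markers, and Plxnb2 turned above 0 there, with the marker score in the model and without wild-type female 3. Both neuropilins lay above 0, Nrp1 at 0.046 and Nrp2 at 0.069.

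Pyramidal, inhibitory and immature neuron markers were mostly above 0 in the same comparison as these members. This held for 8 of 9 pyramidal neuron markers (median 0.066), 12 of 13 inhibitory neuron markers (0.08) and 9 of 10 immature neuron markers (0.078), none at 0 in any library. By sex, pyramidal markers were above 0 for 9 of 9 in males (median 0.148) and 5 of 9 in females (0.001). Inhibitory markers gave 12 of 13 in males and 11 of 13 in females, and immature neuron markers 8 of 10 and 6 of 10. Summed pyramidal markers were 157132 to 184973 in the wild types and 170545 to 187607 in the mutants, summed inhibitory markers 24706 to 26934 and 26247 to 28272, and summed immature neuron markers 13817 to 16438 and 14165 to 15784. Their part in the higher values of Dcc, Efna2, Robo2 and Sema3e was not tested. Astrocyte and microglia markers had medians of 0.03 and 0.024. Markers of the dentate gyrus (5 of 9 above 0, median 0.052), CA1 (3 of 6, -0.004) and CA3 (4 of 6, 0.029) were all detected in every library, as the hippocampal label requires. Gbx2 and Pou4f1, 2 of 10 thalamus and habenula markers, were at 0 in some libraries. The rest of that list and all 8 neocortex markers were detected in every library, so detection alone does not set the hippocampus apart from its neighbours. Markers of the neighbouring neocortex were below 0 for 6 of 8 (median -0.028).

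Within males, no member passed with limma, edgeR or limma-voom, against 0% of genes with each, and DESeq2 called 1, Sema4f, against 0.143%. DESeq2 gave no adjusted p for 25 of the 70 in males, 6 over both sexes, 4 in females and 1 for the difference between the sexes. At an unadjusted p under 0.05 there were 12 members against 10.3% of genes, 6 higher (4.1% of genes) and 6 lower (6.23%). The difference was above 0 for 47 of 70 against 50.6% of genes. When a score of the choroid plexus markers was added to the model, that count was 29 of 70 (48.5% of genes), and without the 3 libraries low in those markers 35 of 70 (49.9%). Without those 3 libraries mutant male 1 was the only mutant male left. The male groups did not overlap for 13 members with the mutants higher, against 8.37% of genes, and for 1, Epha1, with the mutants lower, against 7.68%.

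Sema4f, a membrane-bound semaphorin found at glutamatergic synapses, had the smallest p of any member in males. It counted 1338, 1473 and 1436 in the wild-type males, 1649, 1634 and 1628 in the mutant males, 1623, 1552 and 1560 in the wild-type females and 1495, 1521 and 1488 in the mutant females. Mutant males were all above wild-type males and mutant females all below wild-type females. The male difference was 0.21 ± 0.040 (95% interval 0.12 to 0.30), with an adjusted p of 0.37 by limma and 0.0246 by DESeq2. The female difference was -0.072. The difference between the sexes' genotype effects was itself 0.28 ± 0.057 (95% interval 0.16 to 0.41, unadjusted p = 0.000326) and did not pass after adjustment (adjusted p = 0.619, limma). Sema6b, a ligand of A-type plexins, counted 3222, 3271 and 3256 in the wild-type males and 3547, 3712 and 3523 in the mutant males (0.14 ± 0.045, adjusted p = 0.41). In females, Sema6b overlapped between genotypes, at 3444 to 3526 and 3249 to 3726.

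Within females, no member passed with limma (0% of genes), edgeR (0%), limma-voom (0%) or DESeq2 (0.0514%). At an unadjusted p under 0.05 there were 8 members against 6.9% of genes. Of these, 4 were higher (Dcc, Efnb1, Ephb4 and Ntn4, against 3.82%) and 4 lower (Ephb1, Plxnb3, Sema6a and Unc5b, against 3.07%). The difference was above 0 for 45 of 70 against 50.5% of genes. Without the 3 libraries low in choroid plexus markers, 15 members had an unadjusted p under 0.05 (8.53% of genes) and 42 of 70 were above 0 (50.4%). Efnb1, Ephb4, Ephb1, Plxnb3, Sema6a and Unc5b were among those 15, and Dcc and Ntn4 were not. Female groups did not overlap for 4 members with the mutants higher, against 5.14% of genes, and for 6 with the mutants lower (Efnb3, Plxnb3, Sema4d, Sema4f, Sema6a and Unc5b), against 5.66%.

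Besides Dcc, the members higher in mutant females at an unadjusted p under 0.05 were Ephb4, Ntn4 and Efnb1, none past an adjusted p of 0.05. Ephb4 differed by 0.56 ± 0.19 (adjusted p = 0.59, limma), and by 0.33 without mutant female 2 (adjusted p = 0.845). Ntn4, a netrin of vascular basement membranes, counted 194, 235 and 188 in the wild-type males, 218, 209 and 173 in the mutant males, 146, 172 and 228 in the wild-type females and 255, 269 and 222 in the mutant females, a female difference of 0.47 ± 0.16 (adjusted p = 0.59). Efnb1, a transmembrane ephrin, counted 282, 306 and 252 in the wild-type males, 246, 252 and 301 in the mutant males, 270, 241 and 272 in the wild-type females and 340, 333 and 286 in the mutant females (female difference 0.29 ± 0.11, adjusted p = 0.609). In the same comparison, 11 of 11 endothelial markers, 10 of 10 pericyte and smooth muscle markers and 10 of 10 meningeal fibroblast markers were above 0, with medians of 0.12, 0.55 and 1.33. Summed fibroblast markers were 5296 to 10792 in the wild-type females and 11620 to 23724 in the mutant females, the highest being mutant female 2. Summed pericyte and smooth muscle markers were 7494 to 7958 and 8132 to 13715, summed endothelial markers 9337 to 10044 and 9990 to 11824, and no marker of the 3 lists was at 0 in any library. Their part in the values of the members was not tested.

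The sexes' genotype effects share no library. They had the same sign in 42 of 70 members (60%) and in 51.54% of all genes. Across genes, which are not independent replicates, the male and female effects had a Pearson correlation of -0.308 over the 70 members and -0.274 over all 17496 genes. Sema3b (-1.15 in males, 0.90 in females) and Sema3f (-0.77 and 0.36) lay far from 0 with opposite signs. Neither the correlation nor the count of shared signs was recomputed without the 3 libraries low in choroid plexus markers. Tested directly, the effects differed in no member after adjustment with limma (0% of genes), edgeR (0%), limma-voom (0%) or DESeq2 (0.0171%). At an unadjusted p under 0.05, 7 members differed against 7.85% of genes. In 2 of them (Sema4f and Sema6b, against 2.44% of genes) the male effect was the higher one, and in 5 (Efnb1, Ntn4, Plxnb2, Sema3b and Sema3f, against 5.41%) the female one. The male effect exceeded the female one in 40 of 70 members and in 51.6% of genes. That majority turned without the 3 libraries low in choroid plexus markers, to 26 of 70 (49.2% of genes), and with the marker score in the model, to 24 of 70 (48.8%). Without the 3 libraries the male effect rests on mutant male 1 against the wild-type males.

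**Figure D4:**
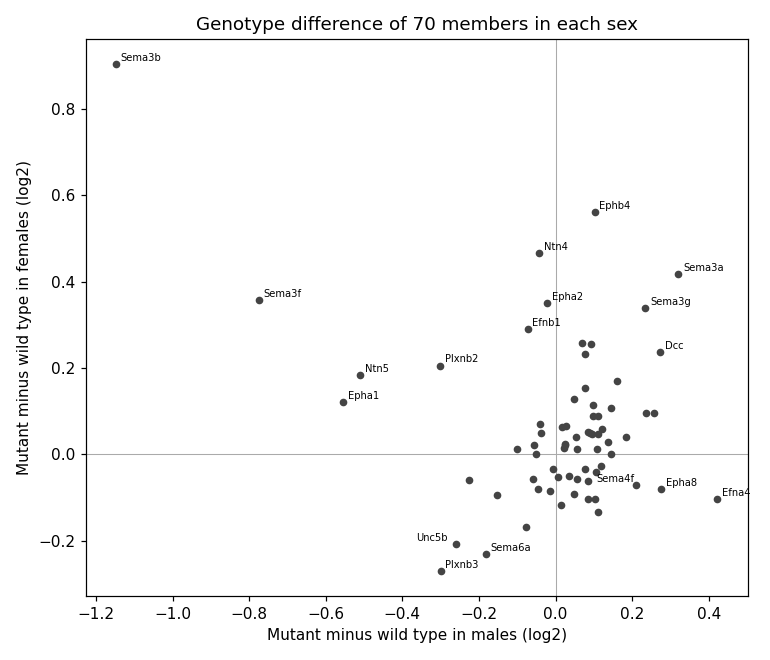
Log2 genotype difference in males (horizontal) and in females (vertical), 1 point per member, names given for points far from 0. Plxnb3 lies at the lower left, Dcc at the upper right, and Sema3b and Sema3f stand apart at the upper left.

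Of those 5, Sema3b, Sema3f and Plxnb2 moved with the choroid plexus markers. Sema3b, a secreted semaphorin, counted 445, 296 and 281 in the wild-type males, 399, 104 and 80.4 in the mutant males, 65.4, 144 and 388 in the wild-type females and 301, 274 and 294 in the mutant females. Its 3 lowest libraries were the 3 with low Ttr. Sema3f, which repels axons through Nrp2, counted 199, 161 and 155 in the wild-type males, 167, 74.9 and 78.2 in the mutant males, 117, 88.0 and 159 in the wild-type females and 132, 147 and 180 in the mutant females. Plxnb2, a receptor of class 4 semaphorins, had 2130 and 2211 in mutant males 2 and 3 and 2093 in wild-type female 1, and 2386 to 3015 in the other 9. The difference between the sexes' effects was -2.05 ± 0.86 for Sema3b, -1.13 ± 0.41 for Sema3f and -0.51 ± 0.18 for Plxnb2, each with an adjusted p of 0.619 by limma. Without the 3 libraries these became -0.032, -0.39 and -0.086, and with the marker score in the model 0.016, -0.44 and -0.067.

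All 15 choroid plexus markers were below 0 in mutant males (median -3.22) and all 15 above 0 in mutant females (median 1.56), and none was at 0 in any library. Ependyma markers were below 0 for 11 of 11 in mutant males (median -0.73) and above 0 for 7 of 11 in mutant females (median 0.028). Summed choroid plexus markers were 6582, 7510 and 7326 in mutant male 2, mutant male 3 and wild-type female 1 and 78645 to 263294 in the other 9. The mean of the 9 exceeded that of the 3 by 3.76 times for Sema3b, 1.71 times for Sema3f, 1.44 times for Epha1, an Eph receptor of epithelia, and 1.34 times for Plxnb2. It was 0.782 of it for Epha8 and 0.789 of it for Efnb2. Members whose 9 libraries all lay above the 3 were Sema3b and Plxnb2 (4.23% of all genes did), and members whose 9 all lay below were Plxnd1 and Sema5b (1.37%). Epha1 counted 44.5, 37.0 and 33.1 in the wild-type males and 25.4, 26.1 and 25 in the mutant males. In mutant male 1, where choroid plexus markers were high, Epha1 was as low as in the other mutant males. Its lowest library was wild-type female 1, where those markers were low, at 20.9. The other wild-type females had 31.4 and 40.7, and the mutant females 36.1, 30.4 and 31.7. The part of choroid plexus in the Epha1 values was not tested.

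**Figure D5:**
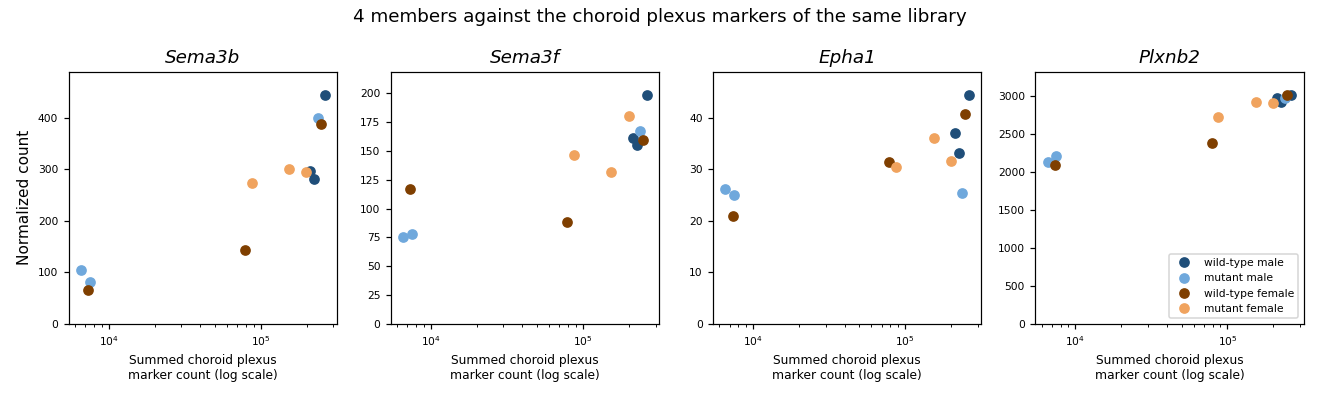
Normalized counts of 4 members (Sema3b, Sema3f, Epha1 and Plxnb2) against the summed normalized counts of the 15 choroid plexus markers (log axis), 1 point per library coloured by group. Sema3b and Plxnb2 are lowest in the 3 libraries at the left, at 65.4 to 104 and at 2093 to 2211.

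Males and females, averaged over genotype, differed in no member with limma (0.0686% of genes), edgeR (0.0686%), limma-voom (0.0629%) or DESeq2 (0.274%). Unc5b was the 1 member with an unadjusted p under 0.05 against 6.64% of genes. It was lower in males, as were 3.54% of genes, and no member was higher, against 3.1%. The difference was above 0 for 31 of 70 and for 47.7% of genes. Without the 3 libraries low in choroid plexus markers, 26 of 70 were above 0 (49.9% of genes). That fit keeps 1 mutant male, mutant male 1, and gave -0.25 for Unc5b and -0.17 for Sema4d. Mutant male 1 was the lowest of the 12 libraries for both genes. After Unc5b the smallest p values belonged to Efnb3 at -0.060 ± 0.028 (adjusted p = 0.754), Sema4d at -0.085 ± 0.041 (adjusted p = 0.759, and -0.049 without mutant male 1), Robo3, which commissural axons need to cross the midline, at 0.14 ± 0.068 (adjusted p = 0.767, and 0.079 without mutant male 2) and Robo4, an endothelial robo, at -0.16 ± 0.091 (adjusted p = 0.819). Robo3 ranged from 1832 to 2432 in males and from 1712 to 2114 in females, and Robo4 from 200.1 to 253 and from 215 to 286.

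The wider pathway was read from lists of genes outside the set. Of 53 intracellular effectors tested, none passed an adjusted p of 0.05 between genotypes over both sexes with limma, 2 were higher and 1 lower at an unadjusted p under 0.05, and 27 were above 0 and 26 below (median 0.002). Over all genes those shares were 4.4%, 4.47% and 49.9%. Of 52 other guidance ligands, receptors and co-receptors, none passed, 4 were higher and 3 lower at an unadjusted p under 0.05, and 40 were above 0 (median 0.044). The smallest p among them was that of Nfasc, an adhesion protein of the node of Ranvier and of the myelin next to it. Its counts ran from 17972 to 19651 in the wild types and from 14074 to 17468 in the mutants without overlap, as for 0.24% of all genes (-0.21 ± 0.045, adjusted p = 0.285). Cntn2, an adhesion protein of myelinated axons, differed by -0.22 ± 0.072 (adjusted p = 0.407), and Chn2, a Rac regulator, by -0.16 ± 0.050 (adjusted p = 0.386). Rgmb, a ligand of the Dcc relative neogenin, ran from 1230 to 1367 in the wild types and from 1355 to 1455 in the mutants (0.14 ± 0.036, adjusted p = 0.336). Draxin, a ligand of Dcc, had 92.8 to 116 and 110 to 144 (0.30 ± 0.080, adjusted p = 0.34), and Crmp1, an effector of semaphorin signalling, 5618 to 6567 and 6280 to 6909 (0.095 ± 0.029, adjusted p = 0.385).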

How the data were processed

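Hippocampal RNA from 12 libraries was sequenced after TruSeq RNA Sample Prep Kit v2 preparation, per the labels' protocols. Per the submitters' processing notes, the tools were DESeq2, HTSeq, TopHat2 2.1.0 and Trimmomatic 0.35, with GRCm38 as the build. The deposited signal is a read count divided by 1 size factor per library: 100% of values came out as whole reads within 1e-06, and the recovered reads are the depth given per library. Gene names, biotypes and exon lengths came from GENCODE M21, which named 45143 of 46078 gene IDs; Ntn3 was not analysed here. Promoter windows came from RefSeq.

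The 17496 genes at or above a mean of 10 were fitted with limma 3.58.1 in R 4.3.3 on log2(value + 1), with a mean-variance trend and 4 group means, and p-values were adjusted by Benjamini-Hochberg over all genes fitted. A fold on that scale understates changes of low genes. The fit was tested on simulated data with log2 changes of 0.5 and 1 in 100 genes each, of which 71% and 88% were recovered. Changes smaller than 0.5, where all averaged member differences lie, were not simulated. Alternatives were edgeR 4.0.16, DESeq2 1.42.0 and limma-voom on recovered reads, pseudocounts of 0.5 and 5, a minimum mean of 50 or none, upper-quartile scaling, a replicate block, each library left out, the 3 libraries low in choroid plexus markers left out, and a choroid plexus score as a covariate. Full values were given for members with the smallest p in each comparison, without overlap of the genotypes, with the highest levels, or with the largest ratio across the choroid plexus split, and for the 6 pathway genes with the smallest p. Marker lists of 17 cell types and regions were summed. The members and lists were chosen with earlier results of these data known.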

Additional observations from a re-analysis of the deposited data

How the results depend on the processing

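No member passed an adjusted p of 0.05 in any of the 5 comparisons with limma, and 4 of the alternative counts were above 0. Over both sexes the count of members was 1 with DESeq2 and 3 without the 3 libraries low in choroid plexus markers. It ranged from 0 to 1 when each library was left out, the 1 coming without mutant male 3. In males it was 1 with DESeq2. Of 736 alternative values of 32 member differences, 729 kept their direction and their side of the threshold, 6 passed the threshold in the same direction and 1 turned: the difference between the sexes in Sema3b was 0.016 with the marker score of choroid plexus in the model (adjusted p = 0.997), and the cause was not tested. Members with an unadjusted p under 0.05 numbered 10 to 18 over both sexes, 8 to 16 in males and 2 to 14 in females when 1 library was left out, 3 to 11 for the difference between the sexes and 0 to 6 between the sexes. The last count rose further without the 3 libraries low in choroid plexus markers, a fit that leaves 1 mutant male. Same-numbered libraries of different groups were treated as unpaired in the main fit. Their deviations correlated from -0.58 to 0.29 and 4 of 18 pairs exceeded 0.1, and 3 of 12 libraries correlated best with their own number. The lowest value set mutant male 1, high in choroid plexus markers, against wild-type female 1, low in them, so these correlations cannot exclude a pairing. With the replicate block, 0 members passed in each comparison, and 3 rather than 7 had an unadjusted p under 0.05 for the difference between the sexes. Reads on genes of 23721482 to 33327314 per library limit most what can be seen in Efna4, Epha1 and Epha2, the members with the fewest normalized counts (20.2, 31.9 and 40.8 on average).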

Other observations

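Members of these families occupy long genes. The median span was 57536 bases (4639 in the shortest, 1097436 in Dcc) against 25242 over the 14929 protein-coding genes tested, and 33 of 70 (47.1%) spanned at least 100000 bases against 15.5%. Over both sexes 23 of these 33 long members (69.7%, median 0.047) and 55.7% of long coding genes (median 0.009) were above 0 in mutants, as were 21 of the 37 shorter members (56.8%) and 50.8% of shorter coding genes.

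Several members lie next to each other. Within gaps of at most 1000000 bases there were 8 groups, among them Robo1 and Robo2 on chromosome 16, Sema3d, Sema3a and Sema3e on chromosome 5, Sema4a with Efna1, Efna3 and Efna4 on chromosome 3, Sema3b and Sema3f on chromosome 9, and Plxnb3 with Plxna3 on chromosome X. Neighbours did not always share a direction: Plxnb3 was at -0.28 over both sexes while all 4 A-type plexins, Plxna3 included, were above 0.

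The spread between libraries of a group differed widely among members. The SD of log2 values within groups had a median of 0.133 over members and 0.112 over all genes tested. It was largest for Sema3b (0.907), Ntn5 (0.503), Sema3f (0.413) and Sema3a (0.412) and smallest for Efna2 (0.032), Sema4f (0.041) and Efnb3 (0.047). Ntn5, whose span overlaps Sec1 on the other strand, ranged from 44.2 to 128 normalized counts.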
